A study of Mus musculus with 55 samples.

Results

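The 9 genes described here are Ccna2, Ccnb2, Ccnf, Cdc25c, Cks1b, Cks2, Pttg1, Ube2c and Cdkn3. Their products form or regulate the cyclin-dependent kinase complex that drives mitosis, or take part in protein destruction as enzyme, ligase subunit or target. The genes were chosen by symbol, as all probe sets that carry 1 of these symbols, and each gene had 1 probe set. They are 9 of the 6137 genes with a probe set of their own symbol, and 9 of the 5051 that could be tested, among 13069 probe sets. Mouse bone marrow was sorted into 5 populations of the B lineage, and their RNA was hybridised to a pair of oligonucleotide array sets that hold different probe sets and give a linear intensity for each. The pre-BI population was sorted as B220+ c-kit+ (6 preparations), large pre-BII and small pre-BII as B220+ CD25+ sIg- cells told apart by size (5 each), immature B as B220Low sIgM+ (5) and mature B as B220hi sIgM+ (5), where sIg and sIgM mean immunoglobulin and IgM on the cell surface. Strain, genotype, age and sex are not given in the labels, no treatment is named, and nothing says whether the numbered sorts were of separate animals. The p-values therefore set differences between populations against the spread of these 26 preparations within their populations, and that spread may be technical.

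As background, mitosis is driven by the kinase Cdk1 bound to a cyclin A or cyclin B, with a small Cks subunit on the complex. The complex is held inactive by phosphate groups that Cdc25 phosphatases remove, and mitosis ends when the anaphase-promoting complex, a ubiquitin ligase, marks the cyclins and securin for destruction by the proteasome. In the bone marrow, large pre-BII cells are the cycling cells that follow pre-B cell receptor signalling, small pre-BII cells are mostly resting cells that rearrange their light chain genes, and immature and mature B cells cycle little.

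The start regions of Ccnb2, Ccnf, Cks1b and Ube2c are shown because the genes of late cell cycle are known to carry CCAAT boxes, bound by the factor NF-Y, and cell cycle homology regions (CHR, here the letters TTTGAA), bound by the DREAM complex, close to their starts. Each window is RefSeq sequence of GRCm38.p6 from 250 bases before the annotated start to 50 bases from it on, given 5′ to 3′ on the strand of the gene. The windows are Ccnb2 at chr9:70421505-70421804 on the minus strand, Ccnf at chr17:24251360-24251659 on the minus strand, Cks1b at chr3:89418242-89418541 on the minus strand and Ube2c at chr2:164769679-164769978 on the plus strand. Capitals mark CCAAT or its reverse complement ATTGG and TTTGAA or its reverse complement TTCAAA.
Ccnb2: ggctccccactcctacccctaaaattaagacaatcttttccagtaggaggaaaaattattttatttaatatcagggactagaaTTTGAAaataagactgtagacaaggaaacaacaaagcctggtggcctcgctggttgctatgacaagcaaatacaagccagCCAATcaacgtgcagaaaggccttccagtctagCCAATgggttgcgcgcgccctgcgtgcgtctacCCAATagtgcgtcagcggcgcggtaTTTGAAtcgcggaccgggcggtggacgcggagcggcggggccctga
Ccnf: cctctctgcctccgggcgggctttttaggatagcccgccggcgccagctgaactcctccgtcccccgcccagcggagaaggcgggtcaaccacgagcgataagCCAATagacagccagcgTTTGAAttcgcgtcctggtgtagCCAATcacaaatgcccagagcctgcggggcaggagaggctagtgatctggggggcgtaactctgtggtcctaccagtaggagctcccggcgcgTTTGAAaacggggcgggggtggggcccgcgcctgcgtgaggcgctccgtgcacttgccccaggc
Cks1b: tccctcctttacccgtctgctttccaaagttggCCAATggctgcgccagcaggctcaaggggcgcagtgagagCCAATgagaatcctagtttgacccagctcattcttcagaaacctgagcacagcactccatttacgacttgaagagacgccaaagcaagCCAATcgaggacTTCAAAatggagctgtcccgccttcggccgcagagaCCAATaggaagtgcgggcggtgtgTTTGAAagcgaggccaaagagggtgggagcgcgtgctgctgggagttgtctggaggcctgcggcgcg
Ube2c: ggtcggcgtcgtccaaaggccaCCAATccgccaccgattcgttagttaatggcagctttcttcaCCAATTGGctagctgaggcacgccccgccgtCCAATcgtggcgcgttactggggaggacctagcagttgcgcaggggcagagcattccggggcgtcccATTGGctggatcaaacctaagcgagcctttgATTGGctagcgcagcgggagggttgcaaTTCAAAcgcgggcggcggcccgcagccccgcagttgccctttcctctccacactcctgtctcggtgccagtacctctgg

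The Ccnb2 window held 3 CCAAT boxes that began at -87, -54 and -21, which put 33 bases between the starts of each neighbouring pair, and TTTGAA at -167 and at 5. The Ccnf window held CCAAT at -147 and -107 and TTTGAA at -130 and -14. Cks1b held 4 CCAAT boxes, at -217, -177, -89 and -41, with TTTGAA at -17 and its reverse complement at -77. Ube2c held 6 matches to CCAAT on either strand, of which those at -186 and -183 overlap, and 1 match to TTTGAA on the reverse strand at -29.

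Windows were found for 7 of the 9 genes. At least 2 CCAAT boxes stood in 6 of these 7 windows, against 11.7% of all 32851 windows in the table. At least 1 TTTGAA stood in 5 of 7, against 17.9% of all windows, and at least 2 CCAAT boxes together with a TTTGAA in 5 of 7, against 2.09%. Cks2 had 4 CCAAT boxes and no TTTGAA, and Cdkn3 had 4 CCAAT boxes and 1 TTTGAA, from a start that lies 80 bases inside the annotated gene. Pttg1 had neither motif in its window, whose start lies 1482 bases inside the annotated gene. A match is a run of letters and not a measured binding site.

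**Figure D1:**
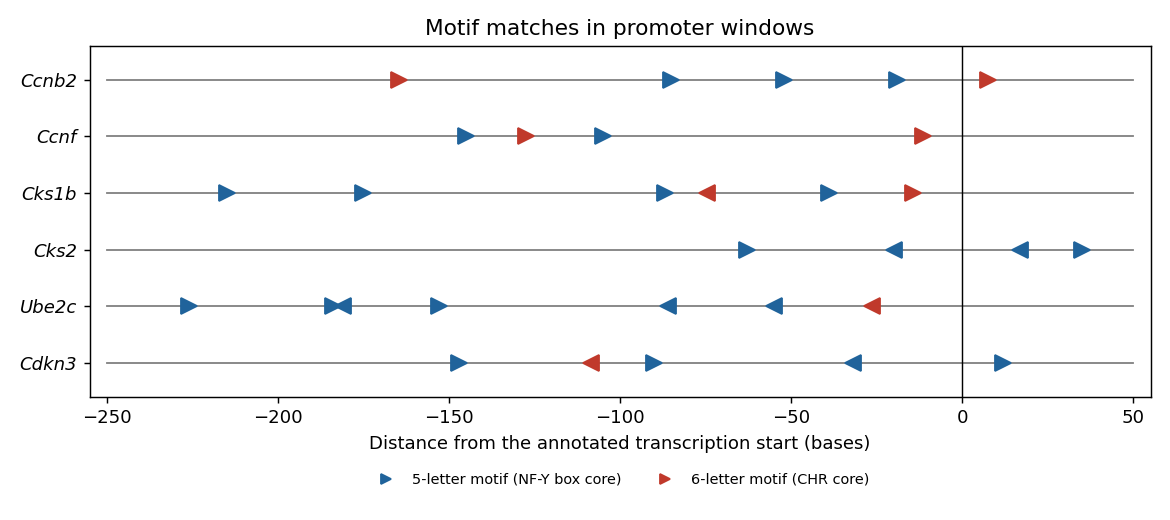
Matches to CCAAT (blue) and TTTGAA (red) in the start windows of 6 member genes (1 row per gene; x axis, bases from the annotated start); arrows point right for the gene's strand and left for the reverse strand. Ccnb2 shows 3 evenly spaced CCAAT boxes and Ube2c shows 6 matches; the Pttg1 window, with no match, is not drawn.

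Levels are quantile-normalised intensities, averaged over the arrays of a preparation, and a level of 1 probe set is not comparable with that of another. A noise limit was set at 2 robust SDs of the negative values, 251 on the first array set and 319 on the b set, which holds Ccna2, Ccnb2 and Ccnf. Fold changes and log2 differences below are taken with levels under the limit raised to it, and carry the words "at least" if every preparation of the lower population was under it. Where part of the lower population was under the limit, a fold is too small by an unknown amount, and folds of different genes are not ranked. Adjusted p-values come from limma, with 1 fit for each array set, which keeps lower values. Benjamini-Hochberg adjustment ran over all 10300 tested probe sets of both array sets. A gene is said to have risen or fallen where the adjusted p was under 0.05. Less RNA per cell and fewer cells with the RNA cannot be told apart in such sorted pools.

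Across the 5 populations, 7 of the 9 genes changed by the moderated F test, where 14.5% of all tested probe sets did. The exceptions were Ccnf (adjusted p = 0.945, limma F test) and Pttg1 (adjusted p = 0.913). The mean was highest in large pre-BII cells for 8 of the 9 genes, Pttg1 being the exception, and 25.1% of all probe sets called by the F test had their highest mean there. For the 7 genes that changed, the large pre-BII mean was the highest and the pre-BI mean the second highest, with the 3 later populations below.

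The mitotic cyclins came first among these. Ccna2 encodes cyclin A2, which partners Cdk2 in S phase and Cdk1 into mitosis. Its level in pre-BI preparations ran from 1478 over a median of 2103 to 2676, and it was 3005, 3394, 5449, 5119 and 4371 in large pre-BII, 388, 273, 261, 401 and 179 in small pre-BII, 151, 213, 210, 174 and 149 in immature B, and 133, 172, 205, 208 and 23.9 in mature B preparations. Every large pre-BII preparation was above every pre-BI preparation, and every pre-BI preparation above every later one, while immature and mature B preparations overlapped and none exceeded the noise limit. Ccna2 averaged 300 ± 93.3 in small pre-BII and 4268 ± 1059 in large pre-BII cells (SD, n = 5 each), which is 12.0-fold lower (log2 difference -3.58 ± 0.18, SE; limma adjusted p = 5.10e-08).

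Ccnb2 encodes cyclin B2, a B-type partner of Cdk1. The Ccnb2 level ran from 1334 over a median of 1647 to 2168 in pre-BI preparations, and it was 4806, 2718, 3326, 3239 and 4416 in large pre-BII, 905, 522, 1094, 586 and 436 in small pre-BII, 269, 216, 305, 271 and 251 in immature B, and 197, 292, 176, 180 and 214 in mature B preparations. Each of the first 3 populations stood apart from the others, and small pre-BII cells kept a level above the noise limit in 5 of 5 preparations, which no immature or mature B preparation did. Ccnb2 was the member that fell again from small pre-BII to immature B cells, at least 2.09-fold (log2 difference -1.07 ± 0.25, SE; limma adjusted p = 0.00124). That call held in 12 of 14 other settings of the processing (limma adjusted p up to 0.357).

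Ccnf encodes cyclin F, which binds no kinase and is the substrate-binding F-box protein of an SCF ubiquitin ligase. Its level ran from 847 over a median of 1034 to 1213 in pre-BI preparations, and it was -71.9, 2690, 1619, 1679 and 2258 in large pre-BII, 718, 911, 558, 945 and 674 in small pre-BII, 828, 499, 456, 543 and 581 in immature B, and 747, 763, 535, 425 and 765 in mature B preparations. The large pre-BII preparation of sort 1, a single array whose deposited value is -28, lay below every other preparation of the 5 populations, and the other 4 large pre-BII preparations lay above all of them. With that preparation Ccnf passed no test. Without it the large pre-BII mean was 2061 ± 509 (SD, n = 4), 1.95-fold the pre-BI mean (log2 difference 0.96 ± 0.19, SE; limma adjusted p = 0.0445) and 2.70-fold the small pre-BII mean (adjusted p = 0.000452 for the fall to small pre-BII cells). This preparation was set aside after its value was seen, and the cause of its low value was not tested.

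Among the genes that switch on or ride on the kinase, Cdc25c encodes the phosphatase that removes the inhibitory phosphates from Cdk1. Its level ran from 109 over a median of 306 to 1079 in pre-BI preparations, and it was 698, 999, 1697, 852 and 526 in large pre-BII, -12.4, 123, 205, 255 and 57.7 in small pre-BII, 128, -93.5, 115, 123 and 64.4 in immature B, and 192, -11.4, -18.5, 114 and -78.1 in mature B preparations. The 6 pre-BI preparations overlapped both large and small pre-BII preparations, and of the 15 later preparations 1 exceeded the noise limit. Cdc25c averaged 126 ± 108 in small pre-BII and 955 ± 451 in large pre-BII cells (SD, n = 5 each), and it fell (limma adjusted p = 0.000361). With 4 of the 5 small pre-BII values under the limit and the other, 255, next to it, the 3.48-fold difference of raised levels (log2 difference -1.80 ± 0.28, SE) is in effect a lower bound.

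Cks1b encodes a Cks subunit of the Cdk complexes that also serves the SCF ligase with Skp2 in the destruction of p27. The Cks1b level ran from 2565 over a median of 3164 to 4140 in pre-BI preparations, and it was 6746, 6802, 7367, 9572 and 6073 in large pre-BII, 101, 682, 1188, 959 and 430 in small pre-BII, 165, 396, 283, 208 and 243 in immature B, and 109, 116, 127, 96.1 and 18.1 in mature B preparations. Large pre-BII, pre-BI and the later populations did not overlap, and neither did mature and immature B preparations. All mature B values, and all immature B values but 396 and 283, were under the noise limit. Cks1b averaged 672 ± 428 in small pre-BII and 7312 ± 1344 in large pre-BII cells, an 11.9-fold fall (log2 difference -3.57 ± 0.42, SE, n = 5 each; limma adjusted p = 2.71e-08). Against large pre-BII cells it was at least 28.7-fold lower in mature B cells.

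Cks2 encodes the second Cks subunit. Its level ran from 467 over a median of 916 to 3171 in pre-BI preparations, and it was 2260, 3326, 3737, 2582 and 2227 in large pre-BII, 169, 218, 569, 267 and 227 in small pre-BII, 164, 199, 356, 149 and 84.9 in immature B, and -63.6, 65.4, 208, 112 and -55.2 in mature B preparations. The pre-BI preparation of sort 8 lay within the large pre-BII range, the other 5 pre-BI preparations lay below it, and no mature B preparation exceeded the noise limit. Cks2 averaged 290 ± 160 in small pre-BII and 2827 ± 674 in large pre-BII cells, a 9.16-fold fall (log2 difference -3.19 ± 0.28, SE, n = 5 each; limma adjusted p = 1.56e-06).

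Cdkn3 encodes a phosphatase that removes the activating phosphate of Cdk1 and Cdk2, and so opposes the kinase. Its level ran from 118 over a median of 544 to 834 in pre-BI preparations, and it was 1812, 1382, 1890, 1611 and 2608 in large pre-BII, 31.3, 151, 298, 95.9 and 120 in small pre-BII, -42.1, 40.2, -60.1, -21.3 and -24.3 in immature B, and 109, 6.11, -90.7, -118 and 43.1 in mature B preparations. Every large pre-BII preparation was above every other preparation, and after small pre-BII cells, where 1 preparation exceeded the noise limit, none did. Cdkn3 averaged 139 ± 98.9 in small pre-BII and 1861 ± 462 in large pre-BII cells, a 6.99-fold fall (log2 difference -2.81 ± 0.16, SE, n = 5 each; limma adjusted p = 1.43e-07). With 1 small pre-BII preparation above the noise limit, this fold is too small by an unknown amount.

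Of the destruction machinery, Ube2c encodes the ubiquitin-conjugating enzyme that starts the chains laid by the anaphase-promoting complex. The Ube2c level ran from 82.7 over a median of 349 to 770 in pre-BI preparations, and it was 1389, 1417, 1753, 954 and 1290 in large pre-BII, -65, -322, -229, -123 and -287 in small pre-BII, -322, 131, -208, -357 and -62.6 in immature B, and -95, -358, 132, -270 and -356 in mature B preparations. Signal above the noise limit was seen in pre-BI and large pre-BII cells and in none of the 15 later preparations. Ube2c was at least 5.26-fold lower in small pre-BII than in large pre-BII cells (log2 difference -2.40 ± 0.14, SE, n = 5 each; limma adjusted p = 1.50e-07).

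Pttg1 encodes securin, the inhibitor of separase that the anaphase-promoting complex destroys. The Pttg1 level ran from -89.2 over a median of 128 to 408 in pre-BI preparations, and it was 196, 115, 74, -106 and 5.74 in large pre-BII, 123, 317, 117, 25.7 and 154 in small pre-BII, 126, 294, 146, -103 and -76.4 in immature B, and -51.3, 9.81, 301, 198 and 90 in mature B preparations. It exceeded the noise limit in 5 of 26 preparations, spread over 4 of the 5 populations, so its level is not measured here and no fold is given.

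**Figure D2:**
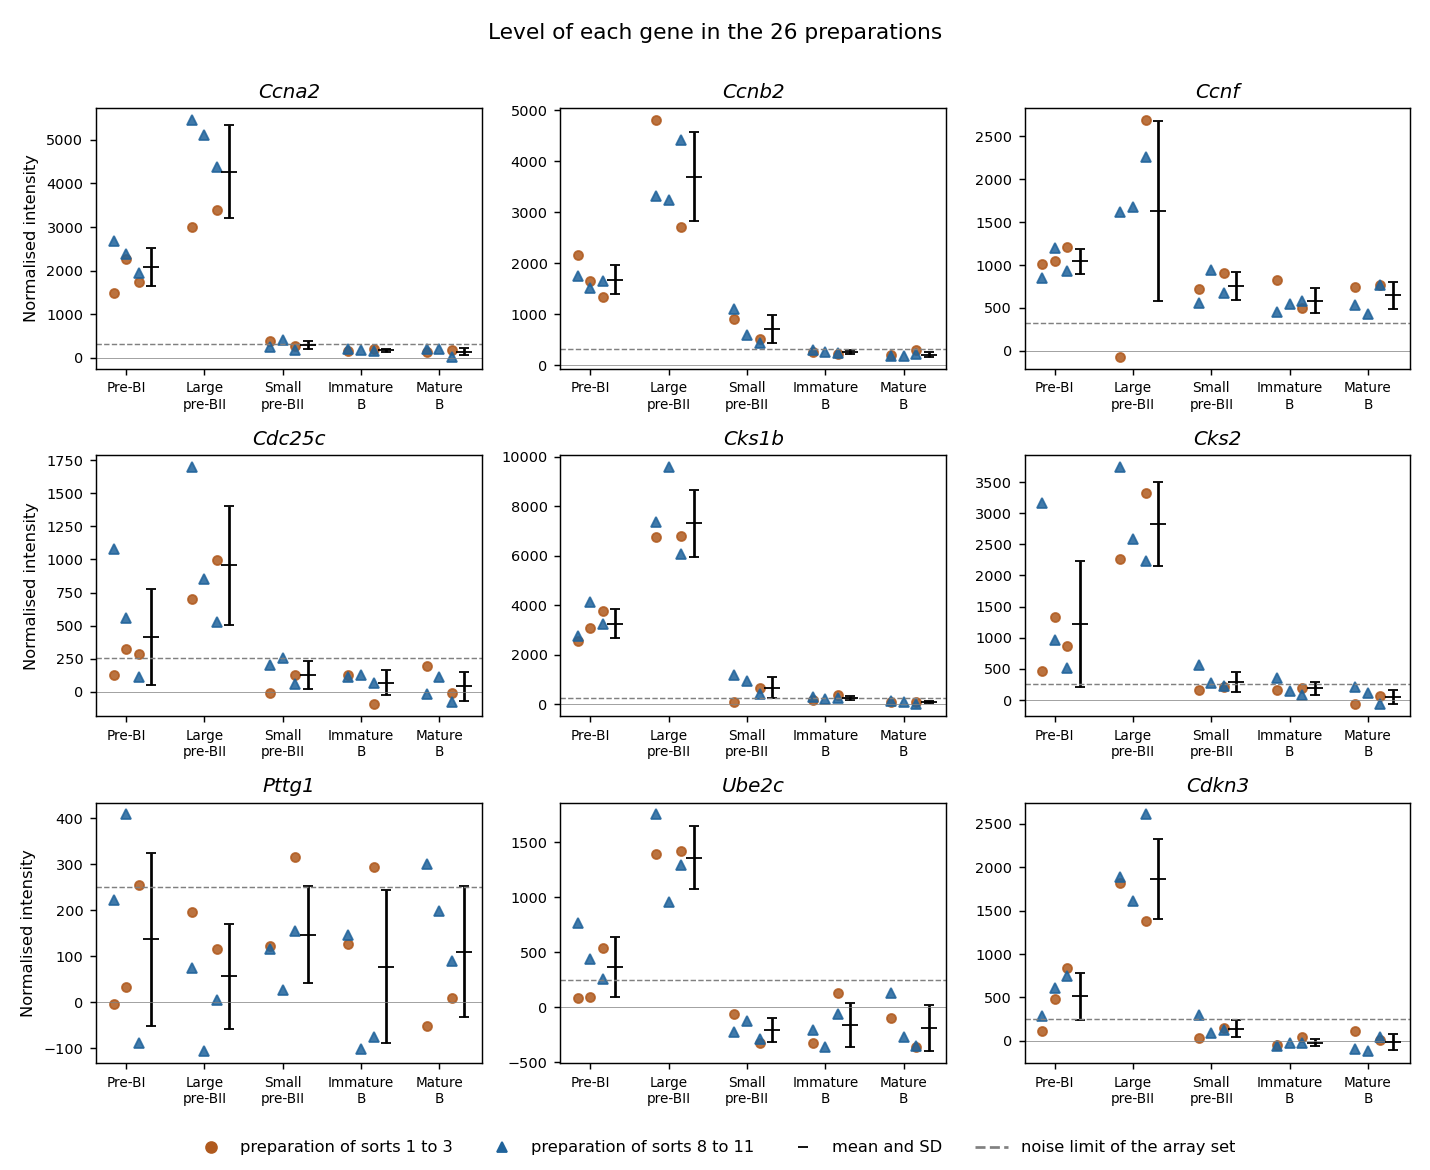
Level of each of the 9 genes (y axis, normalised intensity) in each preparation of the 5 populations in developmental order (x axis), as circles for sorts 1 to 3 and triangles for sorts 8 to 11, with the mean and SD; the dashed line is the noise limit. For 7 genes the large pre-BII points are high and the immature and mature B points lie near or under the limit, Ccnf has 1 large pre-BII point below all others, and Pttg1 is scattered around the limit.

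Entry into the large pre-BII stage was the first comparison. In large pre-BII against pre-BI cells, 3 of the 9 genes rose, where 0.874% of all tested probe sets did, and none fell. Cdkn3 averaged 1861 ± 462 in large pre-BII (SD, n = 5) and 512 ± 274 in pre-BI cells (SD, n = 6), 3.75-fold higher (log2 difference 1.91 ± 0.33, SE; limma adjusted p = 0.00272). Ube2c averaged 1361 ± 286 in large pre-BII and 364 ± 272 in pre-BI cells, 3.49-fold higher (log2 difference 1.80 ± 0.32, SE; adjusted p = 0.00139). Ccnb2 averaged 3701 ± 873 in large pre-BII and 1679 ± 280 in pre-BI cells, 2.18-fold higher (log2 difference 1.12 ± 0.18, SE; adjusted p = 0.00821).

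Cks1b, Ccna2, Cks2 and Cdc25c differed in the same direction without passing this test. Cks1b averaged 7312 ± 1344 in large pre-BII and 3264 ± 598 in pre-BI cells (2.24-fold, limma adjusted p = 0.149), and Ccna2 averaged 4268 ± 1059 in large pre-BII and 2082 ± 443 in pre-BI cells (2.04-fold, adjusted p = 0.262). For both genes no large pre-BII preparation overlapped a pre-BI preparation. Cks2 was 2.82-fold (adjusted p = 0.0627) and Cdc25c 2.25-fold (adjusted p = 0.107) the pre-BI level, with overlap. The Cks2 result depends on the processing: it missed the threshold in 7 of 14 other settings and passed in the rest (limma adjusted p from 0.00317 to 0.589). In all, 5 of the 9 genes were higher in every large pre-BII than in every pre-BI preparation, as were 1.41% of all tested probe sets, and the median log2 difference in the fit was 1.17 over the 9 genes, against 0.00 over all probe sets.

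Same-numbered sorts deviated together in this comparison, and with the sort number as a block 5 of the 9 genes rose, the same 3 with Cks2 (adjusted p = 0.00317) and Cdc25c (adjusted p = 0.0441). Within sorts 1 to 3 alone the fitted log2 differences were 2.13 for Cdkn3, 3.08 for Ube2c and 1.10 for Ccnb2, and within sorts 8 to 11 alone 1.98, 1.54 and 1.15 for the same genes, with 0 of 9 genes past the limma threshold in either smaller fit. On the values as deposited, with no normalisation, Ube2c was the 1 gene called (adjusted p = 0.0163).

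The exit from the large pre-BII stage was the next comparison. In small pre-BII against large pre-BII cells, 7 of the 9 genes fell, where 3.31% of all tested probe sets did, and none rose. In the fit that gives the p-values, the log2 differences of these 7 genes ran from -2.44 for Ccnb2 to -3.92 for Ube2c. The small pre-BII values were under the noise limit in 5 of 5 preparations for Ube2c, 4 for Cdc25c and Cdkn3, 3 for Ccna2 and Cks2, 1 for Cks1b and none for Ccnb2. Ccnb2 was 5.43-fold lower, at 708 ± 279 in small pre-BII and 3701 ± 873 in large pre-BII cells (SD, n = 5 each; log2 difference -2.44 ± 0.29, SE; limma adjusted p = 4.54e-08). The same 7 genes were lower in every small pre-BII than in every large pre-BII preparation, which held for 3.29% of all tested probe sets. The median log2 difference in the fit was -3.38 over the 9 genes, against 0.06 over all probe sets.

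Within sorts 8 to 11 alone 7 genes passed, with Ccnf (fitted log2 difference -1.37, limma adjusted p = 0.0119) in place of Cdc25c (-2.46, adjusted p = 0.0767). Within sorts 1 to 3 alone, with 2 preparations a group, 4 passed, namely Ccna2, Ccnb2, Cks1b and Cks2, and the fitted log2 differences of the other 3 that fell in the full fit were -3.00 for Cdc25c (adjusted p = 0.0897), -3.78 for Cdkn3 (adjusted p = 0.0916) and -3.97 for Ube2c (adjusted p = 0.0678).

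**Figure D3:**
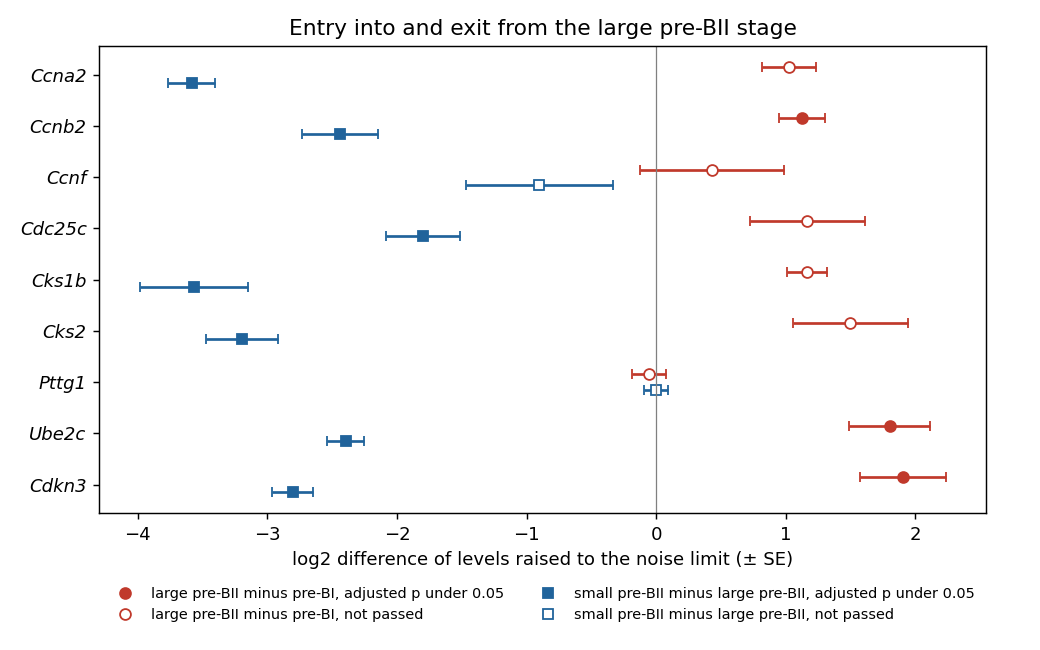
Log2 difference of each gene (x axis; levels under the noise limit raised to it; bars, SE) in large pre-BII minus pre-BI (circles) and small pre-BII minus large pre-BII cells (squares). Filled symbols passed the limma fit at an adjusted p under 0.05: 3 genes on entry and 7 on exit. The Ube2c square, at -2.40, is a bound, and those of Cdc25c, at -1.80, and Cdkn3, at -2.81, rest on 4 of 5 small pre-BII values raised to the limit. The squares of Ccna2, Cks2 and Cks1b rest on fewer such values.

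Past the small pre-BII stage little further difference was measured. In immature B against small pre-BII cells 1 of the 9 genes fell, Ccnb2, where 0.864% of all tested probe sets did. Cks1b averaged 259 ± 88.3 in immature B and 672 ± 428 in small pre-BII cells, 2.16-fold lower (limma adjusted p = 0.293). Its small pre-BII preparation of sort 1 was at 101, and without it the fitted log2 difference was -1.62 (adjusted p = 0.000469). This preparation was singled out after its value was seen. Cks1b stayed without a call in 25 of the 26 fits that left out 1 preparation.

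In mature B against immature B cells 0 of the 9 genes passed limma, with 1 at an unadjusted p under 0.05, and 0.718% of all tested probe sets fell and 0.602% rose. Cks1b averaged 93.3 ± 43.5 in mature B and 259 ± 88.3 in immature B cells, at least 1.12-fold lower, since most values are under the noise limit (adjusted p = 0.193, and 0.0082 without small pre-BII sort 1). That preparation is in neither group, so leaving it out changed the estimate of spread and not the difference. In 25 of the 26 fits that left out 1 preparation Cks1b stayed without a call. Cks1b was the 1 member whose mature B preparations all lay below its immature B preparations, as held for 1.5% of all tested probe sets.

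Set against the start of the series, 7 of the 9 genes fell in mature B against pre-BI cells, where 6.03% of all tested probe sets did. The falls were at least 12.8-fold for Cks1b (limma adjusted p = 1.63e-11), at least 6.41-fold for Ccna2 (2.03e-09), at least 5.04-fold for Ccnb2 (7.77e-11) and at least 3.87-fold for Cks2 (1.05e-06). They were at least 1.93-fold for Cdkn3 (adjusted p = 0.000182), at least 1.56-fold for Cdc25c (0.0352) and at least 1.51-fold for Ube2c (0.0191). The Cdc25c call was lost in 7 of the 26 fits that left out 1 preparation and in 5 of 14 other settings (adjusted p up to 0.745), and the Ube2c call in 3 and 4 of these (up to 0.79). Ccnf was 1.65-fold lower with no overlap between its groups (adjusted p = 0.761, and 0.0462 with the low large pre-BII preparation, which is in neither group, left out). In all, 6 of the 9 genes were lower in every mature B than in every pre-BI preparation, as were 4.57% of all tested probe sets.

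Of the remaining pairs of populations, small pre-BII against pre-BI cells showed 6 genes that fell, where 4.51% of all tested probe sets did. In each of 3 other pairs 7 of the 9 genes fell, in immature B against pre-BI cells (4.36% of all tested probe sets), immature B against large pre-BII cells (4.04%) and mature B against large pre-BII cells (5.53%). In small pre-BII against pre-BI cells, Ccna2 was 5.89-fold (limma adjusted p = 4.31e-06), Cks1b 5.28-fold (6.63e-06), Cks2 3.24-fold (0.00271), Ccnb2 2.49-fold (0.000348) and Cdkn3 1.86-fold lower (0.00727), and Ube2c at least 1.51-fold lower (0.0138). In mature B against small pre-BII cells 2 genes fell, Cks1b (at least 2.42-fold, adjusted p = 0.000243) and Ccnb2 (at least 2.02-fold, 1.83e-05), where 2.23% of all tested probe sets did. In the order large pre-BII, pre-BI, small pre-BII, immature B and mature B, each neighbouring pair passed the test for Ccnb2 except the last. For Ccna2, Cks1b and Cks2 the 1 neighbouring pair that passed was pre-BI and small pre-BII, for Cdkn3 and Ube2c the first 2 pairs passed, and for Cdc25c (small pre-BII against pre-BI, adjusted p = 0.162) none did.

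The Pearson r of a gene's log2 level with the mean of the other members over the 26 preparations was 0.95 for Cks2, 0.93 for Ccna2, 0.92 for Cks1b, 0.90 for Cdkn3, 0.88 for Ube2c, 0.87 for Ccnb2 and 0.87 for Cdc25c, against 0.05 for Ccnf and -0.04 for Pttg1. These points share their arrays and fall into populations, so r describes the common pattern and carries no test. Of 5042 other genes, 29 had r above 0.9 with the mean of the members. The 8 most alike were Hmgb3 (r = 0.96), a chromatin protein of progenitor cells, Top2a (0.95), the DNA topoisomerase of chromosome condensation, Cenpa (0.95), the histone of centromeres, Cdca3 (0.94), Prc1 (0.94), a spindle midzone protein, Kifc1 (0.94), a kinesin motor, Aurkb (0.93), the kinase of the chromosomal passenger complex, and Cdk1 itself (0.93).

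Cdk1, the kinase that these cyclins and Cks proteins serve, averaged 1442 ± 644 in small pre-BII and 9443 ± 1332 in large pre-BII cells (SD, n = 5 each), a 7.13-fold fall (log2 difference -2.83 ± 0.34, SE; limma adjusted p = 3.02e-09). In large pre-BII against pre-BI cells it was 1.66-fold higher (adjusted p = 0.181). No probe set with the symbol Ccnb1, Cdc20 or Fzr1 was found.

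The machinery around the 9 genes was read from 6 lists of 96 genes, of which 57 had a probe set. The lists were drawn up with earlier results of these data known, and the brightest tested probe set of a gene was used. In the list for Cdk1 activation 4 of 11 tested genes fell in small pre-BII against large pre-BII cells, where 3.31% of all tested probe sets did. Besides Cdk1 these were Aurka, the centrosomal kinase (8.27-fold, limma adjusted p = 1.56e-06), Cdk2 (3.00-fold, 0.00121) and Plk1, which activates Cdc25c (2.86-fold, 0.0289), and the median log2 difference of the list was -1.08, against 0.06 over all probe sets. In large pre-BII against pre-BI cells 0 of the 11 passed, with 3 at an unadjusted p under 0.05, and a second Aurka probe set did pass (adjusted p = 0.0386).

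In the list for the anaphase-promoting complex 2 of 9 fell in small pre-BII against large pre-BII cells, where 3.31% of all tested probe sets did. They were Ube2s, the enzyme that extends the chains that Ube2c starts (4.27-fold, limma adjusted p = 0.00865), and Anapc5, a scaffold subunit (3.80-fold, 2.46e-07), and the list's median was -0.29. In the list for separase, cohesin and the spindle checkpoint 4 of 7 fell, against the same 3.31%. Sgo1, which guards centromeric cohesin, was at least 4.84-fold lower (5.17e-08), Bub3 2.51-fold (0.00848), Ttk at least 2.19-fold (2.40e-07) and Bub1 at least 1.82-fold (1.86e-06), with a list median of -1.33. Another Bub3 probe set also fell (3.96-fold, adjusted p = 1.86e-06), and a further probe set each of Bub3 and Bub1, with group means under the noise limit, gives no measure. Ttk was also the 1 gene of the list to rise in large pre-BII against pre-BI cells (2.03-fold, adjusted p = 0.00272), beside that other Bub3 probe set (2.05-fold, adjusted p = 0.0197). Of all tested probe sets 0.874% rose in that comparison.

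In the list for late cell cycle transcription 4 of 11 fell in small pre-BII against large pre-BII cells, where 3.31% of all tested probe sets did, with a list median of -1.11. E2f8, a repressor of E2F targets, was 7.75-fold lower (limma adjusted p = 2.49e-07), Rbl1, the p107 pocket protein, 4.66-fold (1.65e-07), Rbbp4, a DREAM subunit, 3.31-fold (0.000318) and Nfyb, an NF-Y subunit, 2.62-fold (0.000583). Members of this list are not of 1 kind, since Rbl1 and E2f8 are known as repressors. Of the SCF ligase 0 of 4 tested genes and of the proteasome core 0 of 12 passed limma in either of these comparisons, with 0 at an unadjusted p under 0.05, and their medians from large to small pre-BII cells were -0.05 and -0.10. In mature B against pre-BI cells, where 6.03% of all tested probe sets fell, 1 of the 4 SCF genes fell, Nedd8 (1.35-fold, adjusted p = 0.0282), and 3 of the 12 proteasome genes, Psmb6 (1.98-fold, adjusted p = 0.000942), Psma2 (1.96-fold, 0.0232) and Psmb3 (1.76-fold, 0.0427). The median log2 differences there were -0.41 for the SCF list and -0.82 for the proteasome list, against 0.04 over all probe sets. At an unadjusted limma p under 0.05 stood 2 of the 4 SCF genes and 10 of the 12 proteasome genes.

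**Figure D4:**
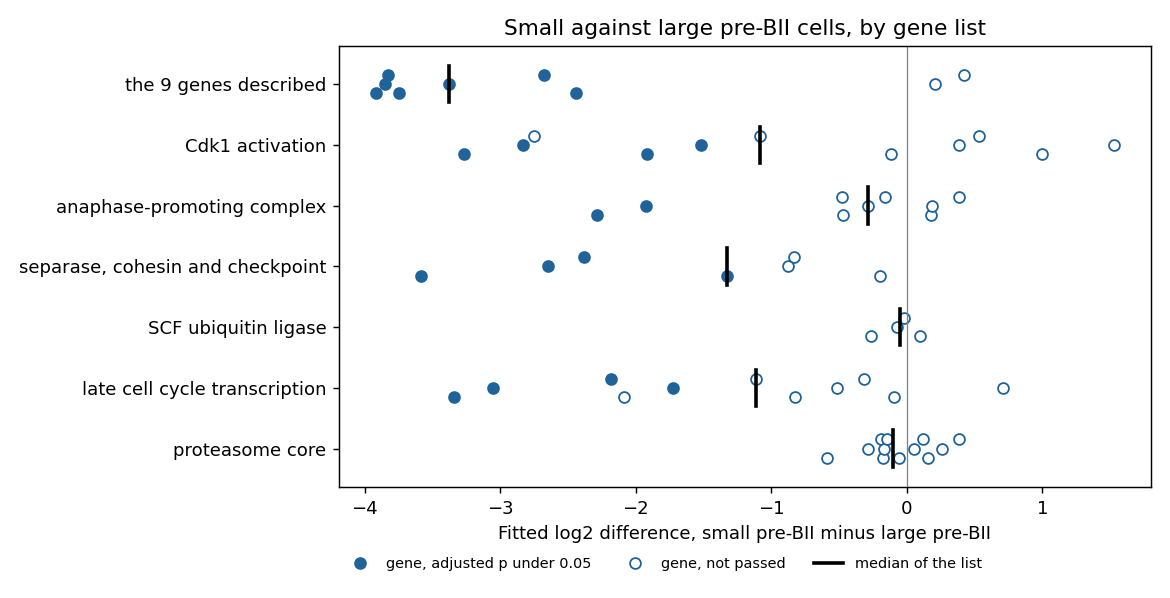
Fitted log2 difference (x axis), small pre-BII minus large pre-BII, of the 9 genes and of each tested gene of the 6 partner lists (1 row per list); filled points passed limma at an adjusted p under 0.05 and a bar marks the median. The median of the 9 genes is -3.38, and those of the lists run from -1.33 to -0.05.

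The labelled populations were read against their markers. Kit, the c-kit gene, exceeded the noise limit in 2 of 6 pre-BI preparations (mean 285, limit 319) and in no other. Il2ra, the CD25 gene, did so in 1 of 5 small pre-BII preparations (mean 171, limit 251) and in no large pre-BII preparation, although both are labelled CD25+, so neither label is borne out by a clear RNA signal. The labels name proteins of the cell surface, which were not measured here. Ptprc, the gene of B220, exceeded it in every population. Of 8 B lineage genes at least 6 exceeded it in each population, with Pax5 above it in 1 of the 26 preparations, of pre-BI cells. Markers of other cells were present in every population, and their part in the results was not tested.

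For erythroid cells 5 of 6 genes exceeded the limit in each population, Epor in none. Their summed level ran from 7435 to 16328 in pre-BI, 9552 to 15047.5 in large pre-BII, 4586 to 13344 in small pre-BII, 9825 to 14575 in immature B and 11384 to 16584 in mature B preparations, with overlap throughout. For granulocytes 5, 6, 4, 6 and 4 of 9 genes exceeded the limit in the same order, Mpo and Ltf in none, and the sums ran from 2085 to 11615, 2241 to 5360, 2170 to 3693, 3265 to 4984 and 3842 to 7137. Ngp, a granule protein gene, averaged 1745 in large pre-BII and 4187 in pre-BI cells, opposite in direction to the 3 members that rose (limma adjusted p = 0.0485).

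For monocytes and macrophages 3 of 5 genes exceeded the limit in each population, Csf1r and C1qa in none, and the sums ran from 4945 to 9697 in pre-BI, 2379 to 6022 in large pre-BII, 2005 to 3089 in small pre-BII, 2640 to 5029 in immature B and 4133 to 5597 in mature B preparations. The sums of large pre-BII and pre-BI preparations overlapped, and those of small pre-BII preparations lay below every pre-BI sum. Of 6 T and NK cell genes at most 2 exceeded the limit in a population, and Cd3g, Cd3d and Cd8a did so in none. The summed level of this list ran from -198 to 2623 in pre-BI, 26.5 to 686 in large pre-BII, -377 to 814 in small pre-BII, -510 to 370 in immature B and -688 to 369 in mature B preparations. Gzma, a granule protease gene of this list, exceeded the limit in 6 of 6 pre-BI preparations and averaged 353 in large pre-BII and 1333 in pre-BI cells, 3.38-fold lower and opposite to the members (limma adjusted p = 0.00675). It averaged 147 in small pre-BII and 353 in large pre-BII cells, at least 1.15-fold lower, in the direction of the members (adjusted p = 0.0396), and it was at least 3.87-fold lower in mature B than in pre-BI cells (2.02e-07). Of 4 plasma cell genes at most 3 did so, and Sdc1 in none.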

How the data were processed

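The authors deposited 1 table for each array set, with a linear intensity for every probe set on every array. Negative values made up 19.6 to 27.8% of each first-set array and 33.9 to 42.4% of each b-set array. The steps of scanning, summary and scaling behind these intensities are not given in the sources used here. Signal over background, not a read depth, limits the precision. Symbols came from the probe set tables given with the arrays, which name 7553 of 13069 probe sets with 1 symbol, 224 with several and 5292 with none, and an old annotation can misplace a probe set. Groups and sort numbers came from the labels.

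Of 55 arrays 54 were used, because on the first set a repeat array of mature B sort 1 matched the array of mature B sort 11 exactly, at each of 6584 values, and the 2 were counted once, as sort 11, although the values could belong to sort 1. Trimmed means of arrays differed 5.60-fold in the first table and 4.22-fold in the second, and both tables were quantile-normalised after 110 control probe sets were dropped. The 40th percentile, 87.6 and 6.89, served as a floor, log2 was taken and the arrays of a preparation were averaged. A probe set was tested if at least 5 preparations exceeded this floor, 10300 in all, the 9 members among them, with limma 3.58.1 in R 4.3.3 (lmFit, eBayes with a trend). There was 1 fit of 26 preparations for each array set, with Benjamini-Hochberg adjustment over both array sets within each comparison. The procedure was tested on simulated data. Promoter windows came from RefSeq (GRCm38.p6).

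All members are described. Named besides them are up to 4 genes per partner list with the largest difference among those that passed, Cdk1, Ccnb1, Cdc20 and Fzr1, and the 8 genes most alike in pattern. Proteasome genes and Nedd8 in mature B cells, Ngp and single marker genes were named after their values were seen. The members and lists were chosen with earlier results of these data known. Same-numbered sorts were checked for shared deviations from the group means: all 5 pairs of large pre-BII and pre-BI preparations (r between 0.113 and 0.297), 3 of immature B and small pre-BII (0.137 to 0.250) and 4 of mature and immature B preparations (0.119 to 0.206) correlated above 0.1, whereas 1 of 4 pairs of small and large pre-BII (0.00419 to 0.246) and 3 of 4 of mature B and pre-BI preparations (0.0596 to 0.241) did. Alternatives were other scalings, floors, filters and spread models, sort number as a block, sorts 1 to 3 and 8 to 11 apart, and each preparation left out.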

Additional observations from a re-analysis of the deposited data

Results flagged for a closer look

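Of 45 groups of 5 or 6 preparations, 4 held a value far from the others, and chance alone flags about 1 in 20. Cks2 stood at 3171 in the pre-BI preparation of sort 8, where the other pre-BI preparations ran from 467 to 1341, and at 569 in the small pre-BII preparation of sort 8, where the others ran from 169 to 267. Cdc25c stood at -93.5 in the immature B preparation of sort 2, where the others ran from 64.4 to 128, all under the noise limit. Cks1b stood at 18.1 in the mature B preparation of sort 11, where the others ran from 96.1 to 127, also under the noise limit; this array is the one deposited under both sort 1 and sort 11. The low Ccnf value of large pre-BII sort 1 (-71.9, others from 1619 to 2690) did not meet the same criterion, since the other 4 values were spread as well.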

How the results depend on the processing

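In large pre-BII against pre-BI cells the count of members called by limma, 3 of 9, varied the most. It was 1 on the values as deposited, 1 with the floor at the 25th percentile, 7 with the floor at the 60th percentile or at the noise limit, 5 with the sort number as a replicate block, 0 within sorts 1 to 3, 0 within sorts 8 to 11, and 3 to 5 when 1 preparation was left out. Only the larger shifts of the count are listed. Cks2 missed the threshold in 7 of 14 alternative settings and passed in the rest, some of which are not listed here. The noise floor gave adjusted p-values of 0.000679 for Ccna2, 0.0066 for Cks1b, 0.00844 for Cdc25c and 0.00526 for Cks2. The calls gained by leaving out 1 preparation were Ccna2 without mature B sort 11 (0.0332), Cdc25c and Cks2 without pre-BI sort 8 (0.0139 and 0.00756), Cks2 without small pre-BII sort 8 (0.0495) and Cks1b without small pre-BII sort 1 (0.00778). Where that preparation is of neither population compared, the group means stay the same and the estimate of spread shifts. In small pre-BII against large pre-BII cells the 7 became 4 within sorts 1 to 3 and ran from 7 to 8 with 1 preparation left out. Cdc25c kept its call in this comparison in 11 of 14 alternative settings (limma adjusted p up to 0.0897). In mature B against pre-BI cells the 7 became 4 within sorts 1 to 3 and 6 within sorts 8 to 11, 5 on the values as deposited and 5 with the floor at the 60th percentile or the noise limit, and 5 to 8 when 1 was left out. Cdc25c lost its call in all 5 of these settings (adjusted p of 0.745, 0.0966, 0.197, 0.145 and 0.12 in that order) and Ube2c in all but sorts 8 to 11 (0.79, 0.175, 0.0963 and 0.0788), and with 1 left out they reached 0.118 and 0.0671. In immature B against small pre-BII cells the 1 became 2 with the floor at the 25th percentile, the 60th percentile or the noise limit and 0 within sorts 1 to 3, and ran from 1 to 2 with 1 left out. Which gene was called also varied: Ccnb2 kept its call in 12 of 14 alternative settings, and Cks1b stayed without a call in 11 of 14. In mature against immature B cells the count ran from 0 to 1 with 1 left out. The F test called 4 of 9 within sorts 1 to 3 and 7 to 8 with 1 left out. The fitted log2 difference of Ccnf, -0.68 in large pre-BII against pre-BI and 0.21 in small against large pre-BII cells, turned to 0.96 and -1.43 without large pre-BII sort 1 (with 1 preparation left out they ran from -1.19 to 0.96 and from -1.43 to 0.72), and to 0.90 and -1.37 within sorts 8 to 11. Within sorts 1 to 3, where the low preparation is 1 of 2, they were -3.00 and 2.57, neither past the threshold. With levels raised to the noise limit the same differences were 0.43 and -0.90. Beside the change in the first comparison, the sort block changed no other count of calls among members. Over all probe sets, the 193 calls of large pre-BII against pre-BI were 49 as deposited and 327 with the block, and sorts 1 to 3 alone gave 2 and sorts 8 to 11 alone 79. The 550 of small against large pre-BII were 224 as deposited (46 higher and 178 lower, where the full procedure gave 209 and 341), 102 in the lower sorts and 354 in the higher. The same 3 settings gave 75, 42 and 134 of 219 for immature B against small pre-BII and 50, 25 and 68 of 136 for mature against immature B, and the first 2 gave 531 and 371 of 1104 for mature B against pre-BI. Smaller fits have fewer preparations; the cause of the other shifts was not tested. Values under the noise limit, most of those in immature and mature B cells, have no order.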

Other observations

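In large pre-BII cells and in pre-BI cells alike, the preparation of sort 8 was the highest of its population for the same 4 of the 9 genes, Ccna2, Cdc25c, Cks2 and Ube2c. In small pre-BII cells sort 8 was the highest for Ccnb2, Cks1b, Cks2 and Cdkn3. In immature B cells sort 8 was the highest for 2 genes, Ccnb2 and Cks2, and sort 2 for 5. The highest immature B values of Ccnb2, Ccna2, Ube2c and Cdkn3 were under the noise limit. In mature B cells sort 8 was the highest for 4, Cks1b, Cks2, Pttg1 and Ube2c, all under the noise limit except Pttg1. The pattern was noticed in the data and was not tested.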
